A study of Mus musculus with 188 samples.

Results

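Organotypic brain slice cultures (BSC) exposed for 48 h to 200 μM hemoglobin-haptoglobin complex (HbHp) were compared with unexposed control slices of the same time. The comparison rested on 17 of the 188 bulk mRNA libraries of the series: 8 HbHp libraries and 9 control libraries, chosen by the treatment tag of the labels. The slices were coronal brain sections of young adult wild-type C57BL/6J mice of both sexes, treated on day 7 of culture, and 4 of the 8 HbHp libraries and 4 of the 9 controls carry the letter F in their names, the others M. Control slices (0 μM) received no globin, HbHp slices received human hemoglobin (Hb) bound to human haptoglobin (Hp), and free Hb at 200 μM (10 libraries at 48 h) and HbHp at 24 h (8 libraries) serve for comparison. A slice holds all brain cell types without blood flow, and since bulk RNA was sequenced, fewer cells of a type and less RNA per cell cannot be told apart.

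Haptoglobin is the plasma protein that captures Hb released from lysed red blood cells. The complex is taken up by macrophages through the receptor CD163, the globin is degraded, heme is opened by heme oxygenase to biliverdin, carbon monoxide and iron, and the iron is stored in ferritin or exported by ferroportin. Heme and electrophiles also release the transcription factor NRF2 from its inhibitor KEAP1. NRF2 then binds antioxidant response elements together with small MAF proteins and raises genes for glutathione synthesis, NADPH supply, thioredoxin recycling and detoxification, while heme removes the repressor BACH1 from some of the same elements.

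All 8 HbHp libraries came from sequencing batch 3 and from library names that begin with E2, taken here as the second culture round. Of the 9 controls, 6 were from batch 2 and round E1, and 1 each from the other combinations, so that only 2 controls shared the round and 1 shared both round and batch. Batch and round therefore stood in the model as terms, estimated from 55 libraries (control, Hb and HbHp at 24 h and 48 h). The round coefficient passed the threshold for 9984 of 16221 genes. Total counts ran from 25379899 to 32416072 per HbHp library and from 26537187 to 47468700 per control. No pair of libraries within either group agreed within sampling noise. The labels do not say which libraries came from separate animals, so the p-values measure the spread between libraries only. Library names also hold a code of a letter and a number that recurs between groups of the same round. The labels do not explain this code, and the main fit took libraries that share it as independent. HbHp replicate 1 stood apart: its residual spread was the highest of the 55 libraries (0.634 on the log2 CPM scale, the next 0.6), and against the other HbHp libraries genes of the lowest GC content quintile stood higher (0.20) and those of the highest quintile lower (−0.33). Of the named genes past the threshold, 12 did not pass without it: Maff, Htatip2, Slc2a1, Pgrmc1, Psma3, Psmc6, Psmd1, Psmd7, Jund, Mcm3, Ddit4 and Gucy2f (adjusted p from 0.0514 for Slc2a1 to 0.110 for Psmd7). Some of the values that it moves are given with and without it.

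HbHp changed 822 genes at 48 h with an adjusted p below 0.05 in the quasi-likelihood test of edgeR, which is 5.07% of the 16221 genes tested. Of these, 600 were raised (3.70%) and 222 were lowered (1.37%). In mean levels without the batch and round terms, 110 of the raised genes were at or below the mean of the 9 controls. By the same measure, 13 of the lowered genes were at or above it. Without control replicate 9, the only control of the same batch and round, 244 changed (188 raised, 56 lowered), and a fit of the 17 libraries alone gave 35. The median log2 fold change over all tested genes was −0.0018. Of the oxidative stress lists 35 of 99 tested genes were raised and none lowered, and of the heme and iron lists 9 of 44 were raised and 1 lowered. Most of the 822 changes were small, since 78 raised and 65 lowered genes changed by at least 1.5-fold.

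Base composition differed between the raised and the lowered genes. The raised genes had a median GC content of 42.8% in their longest transcript and the lowered genes of 55.1%, against 49.7% over the tested genes. With each library's trend with GC content and transcript length removed, a correction chosen after seeing the data, 287 genes (1.77%) passed, of which 204 were raised, 83 lowered and 247 shared with the first count. Of the 78 genes raised by at least 1.5-fold, 67 were also raised after the correction, but of the 522 raised by less, 106 were. The part of base composition in the smaller changes was not tested.

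The 10 genes raised most were Il19, Gsta3, Clec4n, Ereg, Dnmt3l, Nqo1, Slc7a11, Syt15, Areg and Nkx3-2, among genes with a mean of at least 1 CPM (counts scaled to library size). Each passed the threshold when any one of the 17 libraries was left out, in round E2 alone and after the GC correction, but 7 of the 10 passed in batch 3 alone and 6 in the fit of the 17 libraries alone. Il19, an interleukin of the IL-10 family, was measured at 0.0795 to 0.490 CPM in the controls (median 0.335) and at 1.28 to 5.87 CPM with HbHp (median 2.13). All 8 HbHp libraries lay above all 9 controls, which was true of 1.07% of the tested genes, although replicate 1 gave the highest value by far. The log2 fold change was 3.39 ± 0.42 (SE, adjusted p = 1.56e-07), and 3.07 without replicate 1.

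Dnmt3l, a cofactor of DNA methyltransferases whose exons overlap those of Aire on the opposite strand, rose from 0.126 to 0.636 CPM in the controls to at least 1.21 CPM, with a median of 1.72 CPM (log2 fold change 1.97 ± 0.32, adjusted p = 5.98e-05). Nkx3-2, a homeobox factor, stood at 1.04 to 3.58 CPM in the controls and at 3.82 to 5.41 CPM with HbHp (1.63 ± 0.35, adjusted p = 0.00278). Neither gene had an HbHp library within the range of the controls. Syt15, a synaptotagmin, was different, because the HbHp libraries (3.58 to 6.06 CPM) lay within the range of the round E1 controls (up to 6.08 CPM) and above only the 2 controls of round E2 (1.07 and 1.16 CPM). Its log2 fold change of 1.65 ± 0.25 (adjusted p = 1.72e-05) rests on the round term, and without that term it was 0.48 (adjusted p = 0.387).

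**Figure D1:**
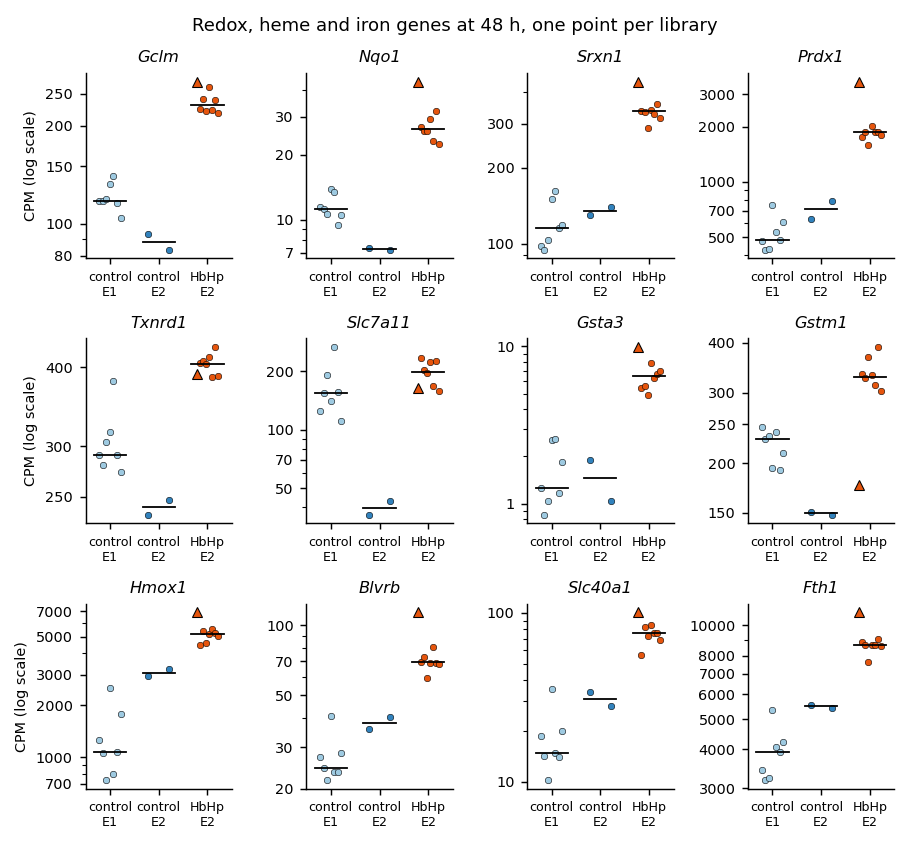
Levels of 12 redox, heme and iron genes in single 48 h libraries, in TMM-scaled CPM on a log axis; light blue, controls of round E1 (7 libraries); dark blue, controls of round E2 (2 libraries); orange, HbHp (8 libraries, all round E2); triangle, HbHp replicate 1; lines, medians. Gclm, Nqo1, Srxn1, Prdx1, Txnrd1, Gsta3, Hmox1, Blvrb, Slc40a1 and Fth1 were above every control in all 8 HbHp libraries, whereas Slc7a11 and Gstm1 overlapped the round E1 controls.

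Glutathione, the main small thiol of the cell, is built from cysteine that enters as cystine through Slc7a11. Of 12 tested genes of glutathione synthesis and recycling, 5 were raised and none lowered, with a median log2 fold change of 0.24. Gclm, the modifier subunit of the rate-limiting glutamate-cysteine ligase, stood at 83.3 to 140 CPM in the controls (median 117) and at 218 to 273 CPM with HbHp (median 232). The groups did not overlap, and Gclm gave the smallest p of the genes named here (log2 fold change 1.37 ± 0.10, adjusted p = 1.27e-14). Its exons overlap those of 2 other annotated genes. Gclc, the catalytic subunit, rose less (0.67 ± 0.11, adjusted p = 2.57e-05), and its HbHp libraries (97.3 to 114 CPM) lay above both E2 controls (56.7 and 59.5 CPM) but within the range of the E1 controls (up to 117 CPM).

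Slc7a11 showed the same split by round to a larger degree. The E2 controls were at 36.4 and 42.8 CPM, the E1 controls reached 267 CPM, and the HbHp libraries ran from 158 to 233 CPM. The log2 fold change was 1.66 ± 0.28 (adjusted p = 7.62e-05), with 2.39 in round E2 alone and 0.92 without the round term. Gsr, which reduces oxidized glutathione, and Gss, which completes the tripeptide, rose by smaller amounts (0.63 ± 0.07, adjusted p = 9.46e-09, and 0.45 ± 0.08, adjusted p = 0.000103). Both were above all 9 controls in all 8 HbHp libraries.

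Glutathione S-transferases couple glutathione to electrophiles. Of 20 tested members 5 were raised and none lowered, with a median of 0.17. Gsta3, a cytosolic alpha-class enzyme, was measured at 0.847 to 2.59 CPM in the controls (median 1.27) and at 4.90 to 9.93 CPM with HbHp (median 6.48), a log2 fold change of 2.23 ± 0.28 (adjusted p = 1.92e-07). No HbHp library was within the control range. Gstm1 rose by 0.88 ± 0.14 (adjusted p = 5.98e-05), with 148 to 246 CPM in the controls and 176 to 391 CPM with HbHp. Its lowest HbHp value was replicate 1, the others began at 302 CPM, and without that library the fold change was 0.97. Gsta4 and the membrane-bound Mgst1 and Mgst2 rose by 0.75, 0.65 and 1.17. Enzymes of these classes are similar in sequence, and counts between close relatives may be split differently by other counting rules.

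Thioredoxins and peroxiredoxins pass electrons from NADPH to oxidized proteins and peroxides. Here 4 of 13 tested genes were raised and none lowered. Prdx1, an abundant cytosolic peroxiredoxin, stood at 428 to 790 CPM in the controls (median 535) and at 1595 to 3508 CPM with HbHp (median 1866). All HbHp libraries were at least as high as 1595 CPM, and replicate 1 was the highest by far (the others reached 2025 CPM). The log2 fold change was 1.51 ± 0.14 (adjusted p = 7.29e-11) and 1.36 without replicate 1. Srxn1, which reactivates overoxidized peroxiredoxins, rose by 1.35 ± 0.17 (adjusted p = 1.92e-07) from 94.5 to 162 CPM in the controls to 289 to 440 CPM. Txnrd1, the cytosolic thioredoxin reductase, rose by 0.71 ± 0.08 (adjusted p = 2.13e-08), and Txn1, its substrate, by 0.41 ± 0.08 (adjusted p = 0.000656).

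NADPH feeds both systems. Of 7 tested enzymes of NADPH supply and the pentose phosphate pathway, 6 were raised, with a median of 0.45. Of these 7, Pgls, Taldo1 and Tkt belong to the pathway but do not themselves make NADPH. Pgd and G6pdx, the oxidative enzymes of the pentose phosphate pathway, rose by 0.64 ± 0.07 (adjusted p = 1.44e-08) and 0.62 ± 0.09 (adjusted p = 1.04e-05). G6pdx shares exon sequence with Ikbkg on the opposite strand. Taldo1 (0.56), malic enzyme Me1 (0.45), transketolase Tkt (0.31) and Idh1 (0.27) also passed, and Pgls did not. Pgd ran from 103 to 168 CPM in the controls and from 217 to 255 CPM with HbHp, whereas the HbHp libraries of Me1 (180 to 220 CPM) lay within the range of the E1 controls. Idh1 no longer passed after the GC correction (0.14).

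Of 17 tested detoxification and export genes known to be inducible by NRF2, 9 were raised and none lowered, with a median of 0.42. Nqo1, a quinone reductase, stood at 7.24 to 13.9 CPM in the controls (median 10.6) and at 22.4 to 43.6 CPM with HbHp (median 26.3). No library of either group crossed into the other. The log2 fold change was 1.71 ± 0.18 (adjusted p = 3.8e-09), 1.60 without replicate 1 and 2.04 in round E2 alone. Osgin1 (1.11), Esd, which hydrolyzes S-formylglutathione (0.97), the aldo-keto reductase Akr1b8 (0.93), the autophagy adaptor Sqstm1 (0.76), the epoxide hydrolase Ephx1 (0.71), Cbr3 (0.63), the glutathione conjugate exporter Abcc1 (0.41) and Htatip2 (0.41) made up the rest. Sqstm1, at 325 to 536 CPM in the controls and 743 to 916 CPM with HbHp, was as high in replicate 1 (861 CPM) as in the others. Among the superoxide and peroxide enzymes, catalase (Cat) rose by 0.68 ± 0.09 (adjusted p = 1.87e-06), from 127 to 181 CPM in the controls to 256 to 296 CPM, and Sod1 by 0.34 ± 0.07 (adjusted p = 0.0029).

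Most regulators did not pass the threshold. Nfe2l2, which encodes NRF2, was at 115 to 174 CPM in the controls and 128 to 151 CPM with HbHp (0.16 ± 0.11, adjusted p = 0.398), and Keap1 at 60.8 to 71.1 and 50.4 to 70.9 CPM (−0.03 ± 0.06, adjusted p = 0.806). Of 7 tested regulators, the small MAF gene Maff (0.50 ± 0.14, adjusted p = 0.023) and Cul3, the scaffold of the ligase that degrades NRF2 (0.19 ± 0.05, adjusted p = 0.0127), passed the threshold. After the GC correction Maff, Mafg (0.33, adjusted p = 0.00133) and Bach1 (0.22, adjusted p = 0.0313) passed and Cul3 did not. In the remaining oxidative stress lists, 2 of 12 ferroptosis genes (Slc7a11 and Fth1) and 1 of 6 metallothionein and zinc genes, the zinc exporter Slc30a1, were raised, the latter not after the GC correction.

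Over the whole oxidative stress group, 79 of 99 members had a fold change above zero, with a median of 0.20. All 8 HbHp libraries lay above all 9 controls for 19 of the 35 raised members, and for 1.07% of all tested genes. The 35 were picked by their p in the same libraries. These shares therefore have unlike bases, and the first is no separate support. The HbHp libraries lay above both E2 controls for 31 of the 35, for which the share over all genes was not computed. Of all 600 raised genes, 595 had an HbHp mean above the E2 control mean. A gene called raised with the round term was thus nearly bound to lie there, and the 31 adds no support. Of the 35, 28 passed whichever of the 17 libraries was left out, 33 passed without HbHp replicate 1, 32 passed with the GC correction, 27 in round E2 alone, 22 in batch 3 alone and 14 in the fit of the 17 libraries alone. The 7 that were lost in at least one leave-out were Mgst2, Maff, Htatip2, Tkt, Idh1, Slc30a1 and Cul3.

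**Figure D2:**
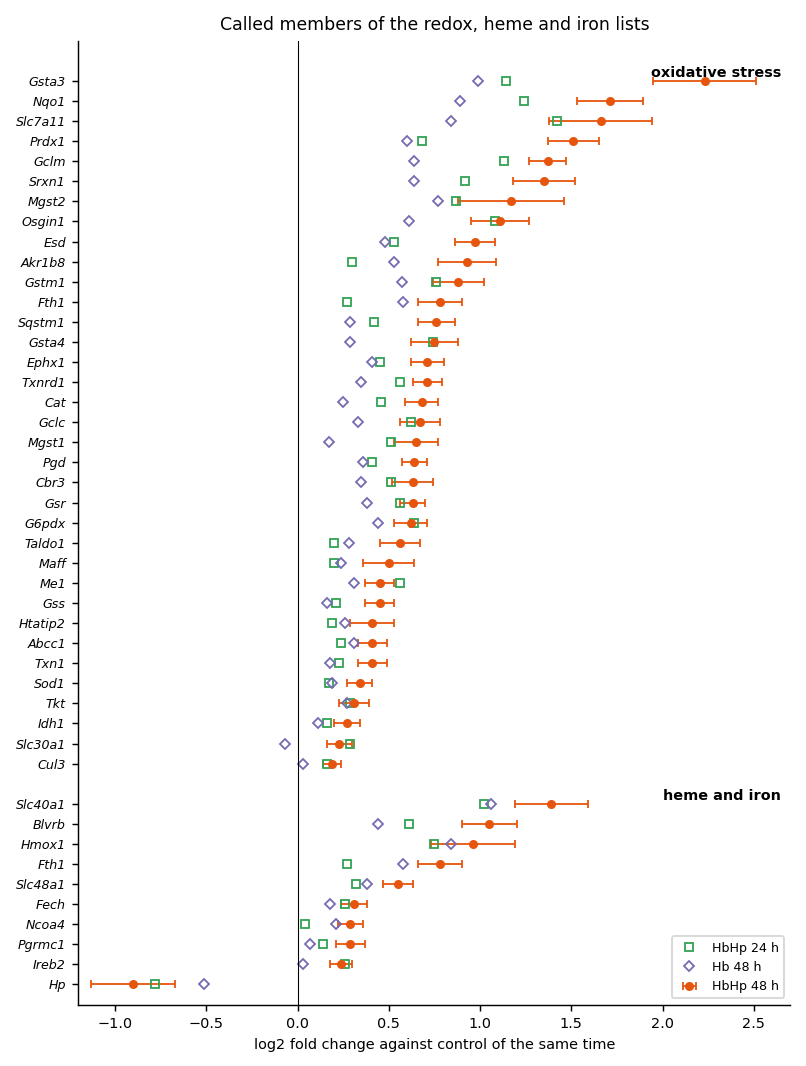
Log2 fold change against the control of the same time for each member of the oxidative stress lists and the heme and iron lists that passed the threshold at 48 h. Orange points with bars (± SE) are HbHp at 48 h, green squares HbHp at 24 h and purple diamonds free Hb at 48 h. Fth1 belongs to both groups, Gsta3 was raised most at 48 h (2.23), and Hp was the only lowered member (−0.90).

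The promoters of several raised members hold the core of the antioxidant response element, the motif bound by NRF2 with small MAF proteins. The core searched was TGACNNNGC on either strand, in a window from 250 bases before to 50 bases after each gene start (RefSeq, GRCm38.p6, another build than the GRCm39 of the counts). A gene counted when any of its windows held the core, and some genes have several windows. The core was present in 13 of the 31 raised oxidative stress members that have an entry (41.9%). It was present in 18 of 57 named raised genes (31.6%) and in 1 of 17 named lowered genes (5.88%, Calr). The share was 16.7% of the 12119 tested genes with an entry and 14% of all 27025 gene symbols with an entry. The lists include genes chosen as NRF2-inducible, and the share among their members not raised was not computed. Nqo1 has an entry but no core in its window. Of the 91 named genes past the threshold, 74 matched an entry. The windows of 5 members with large or well-separated changes show how the core lies in different surroundings, with the core in capitals and reading in the sense of the gene, where GCNNNGTCA is the same core on the opposite strand:
Gsta3 (chr1:21240438-21240497, plus strand, core starting 121 bases before the gene start): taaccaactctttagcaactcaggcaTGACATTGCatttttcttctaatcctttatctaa
Gclm (chr3:122245397-122245456, plus strand, 134 bases before): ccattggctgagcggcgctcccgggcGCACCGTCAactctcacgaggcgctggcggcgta
Prdx1 (chr4:116685440-116685499, plus strand, 133 bases before): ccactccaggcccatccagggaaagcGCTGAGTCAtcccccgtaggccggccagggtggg
Txnrd1 (chr10:82859088-82859147, plus strand, 92 bases before): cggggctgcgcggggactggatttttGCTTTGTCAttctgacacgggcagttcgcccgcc
G6pdx (chrX:74428904-74428963, minus strand, 57 bases before): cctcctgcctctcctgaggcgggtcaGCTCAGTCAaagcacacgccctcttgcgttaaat
A match is a description of these letters and not evidence of binding.

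Heme breakdown and transport had 4 of 10 tested genes raised, with a median of 0.27. Hmox1, the inducible heme oxygenase, was at 735 to 3233 CPM in the controls (median 1253) and at 4502 to 6949 CPM with HbHp (median 5213). All HbHp libraries exceeded all controls, but the controls were split by round, with up to 2506 CPM in E1 and 2967 and 3233 CPM in E2. The log2 fold change with the round term was therefore 0.96 ± 0.23 (adjusted p = 0.00753), against 1.44 without that term and 0.68 in round E2 alone (adjusted p = 0.0225). Blvrb, a biliverdin reductase, rose by 1.05 ± 0.15 (adjusted p = 2.18e-06), from a control median of 27.3 CPM to 59.3 to 114 CPM, above every control. Slc48a1, which moves heme out of lysosomes and whose exons overlap Hdac7 on the opposite strand, rose by 0.55 ± 0.08 (adjusted p = 7.99e-06). Pgrmc1, a heme-binding membrane protein, passed at 0.29 but not after the GC correction (0.17).

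Iron genes followed in 4 of 20 tested cases. Slc40a1, which encodes ferroportin, the only known cellular iron exporter, was measured at 10.2 to 35.3 CPM in the controls (median 18.6) and at 56.6 to 101 CPM with HbHp (median 75.9). The groups were apart, and the log2 fold change was 1.39 ± 0.20 (adjusted p = 7.41e-06). Fth1, the ferritin heavy chain, rose from 3183 to 5558 CPM in the controls to 7625 to 11027 CPM (0.78 ± 0.12, adjusted p = 2.94e-05), and the light chain Ftl1 did not pass (0.39 ± 0.17, adjusted p = 0.165). Both encode abundant transcripts with processed copies in the genome. Ncoa4, the receptor for ferritin degradation (0.29), and Ireb2, an iron-regulatory protein (0.24), passed but not after the GC correction. Tfrc, the transferrin receptor, was at 66.6 and 75.7 CPM in the E2 controls and at 66.4 to 82.9 CPM with HbHp (0.06 ± 0.12, adjusted p = 0.83).

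Fech, which inserts iron into protoporphyrin, was the raised gene among 8 of heme synthesis (0.31 ± 0.07, adjusted p = 0.00483). Alas1 of the same list was raised only after the GC correction. Of the 6 tested scavengers and receptors, none was raised. Hp, the mouse haptoglobin gene, fell (−0.90 ± 0.23, adjusted p = 0.0126), with 7.14 to 15.7 CPM in the E1 controls, 23.2 and 29.3 CPM in the E2 controls and 10.9 to 21.8 CPM with HbHp. Its direction depended on the round term (0.03 without it), and the call was lost without control replicate 9 (adjusted p = 0.0609). Cd163 did not pass, with 1.54 to 7.57 CPM in the controls and 1.81 to 4.94 CPM with HbHp (−0.39 ± 0.36, adjusted p = 0.572), nor did Lrp1, the receptor for heme-hemopexin (−0.38 ± 0.16, adjusted p = 0.169, and −0.24 without HbHp replicate 1). Of the 9 raised heme and iron genes, 8 passed without replicate 1 and 6 in every leave-out (Slc40a1, Blvrb, Hmox1, Fth1, Slc48a1 and Fech). In batch 3 alone 5 of the 9 passed, and in the fit of the 17 libraries alone 0 did. All 9 passed with DESeq2 on the 55 libraries.

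**Figure D3:**
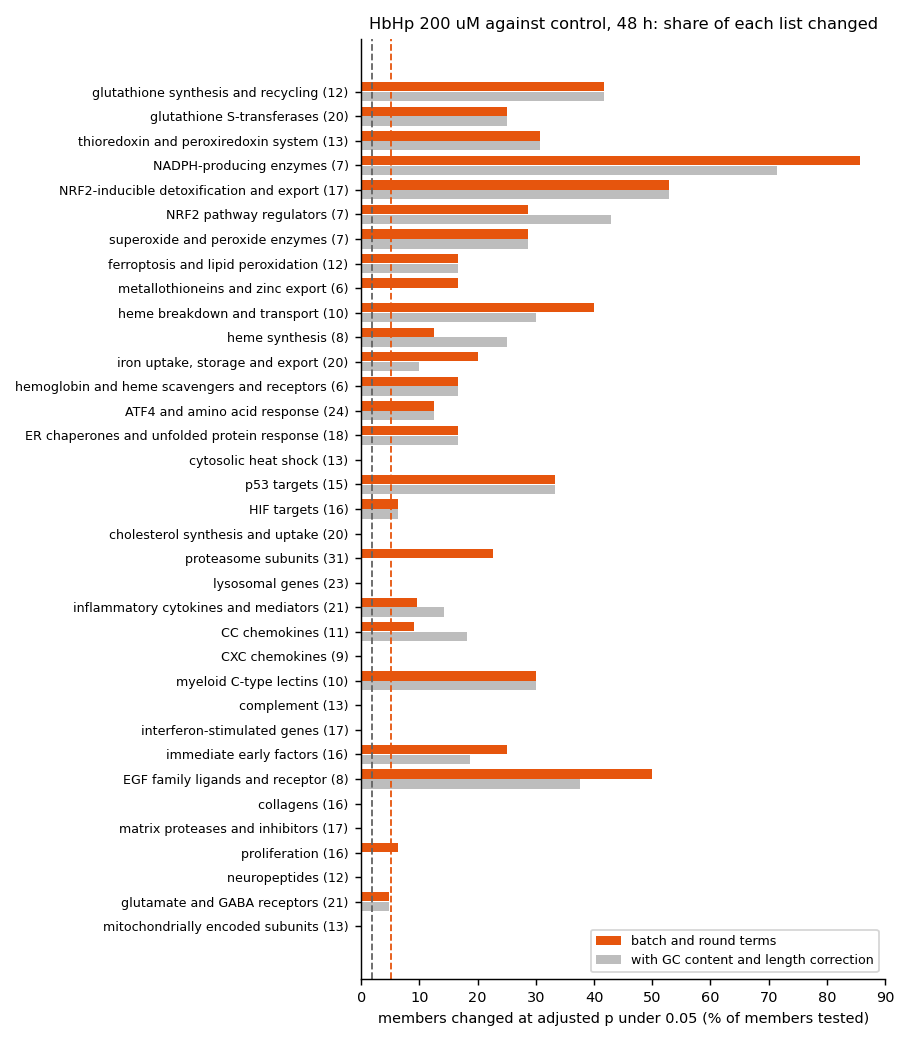
Share of the tested members of each gene list (number tested in brackets) that changed at adjusted p under 0.05, in percent. Orange bars are from the model with batch and round terms and grey bars from the same model after the GC content and length correction; the dashed lines are the shares over all tested genes, 5.07% and 1.77%. The bars labelled NADPH-producing enzymes (a list that also holds Pgls, Taldo1 and Tkt) and NRF2-inducible genes stand highest. The proteasome bar is absent after the correction.

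Among the other stress programs, 15 of 160 tested genes were raised and 4 lowered. Of the 15, 7 passed in every leave-out, 7 with the GC correction and 1 in batch 3 alone, and none of the 4 lowered genes passed in every leave-out. Of 15 p53 targets 5 were raised and none lowered, with a median of 0.23. They were the death receptor Eda2r (0.78 ± 0.16, adjusted p = 0.00147), Trp53inp1 (0.45), Ccng1 (0.37), the p53 ligase Mdm2 (0.35 ± 0.08, adjusted p = 0.0042) and the exonuclease Aen (0.31). Mdm2 ran from 89.7 to 117 CPM in the controls and from 136 to 182 CPM with HbHp, without overlap. Eda2r, with 16.2 to 25.7 CPM, lay above both E2 controls (9.98 and 10.6 CPM) but overlapped the E1 controls (up to 19.5 CPM), and Ccng1 was not raised after the GC correction. Bax was raised only after that correction. Trp53inp1 and Aen did not pass without control replicate 9 (adjusted p = 0.0592 and 0.0942).

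Of 31 proteasome subunits 7 were raised and 30 had a fold change above zero, with a median of 0.17. All 7 (Psmd14, Psma5, Psmd11, Psma3, Psmc6, Psmd1 and Psmd7) were between 0.15 and 0.30, and none passed after the GC correction. Psmd11, at most 100 CPM in the controls and 112 to 126 CPM with HbHp, was separated from the controls, but it stood at 0.15 after the correction (adjusted p = 0.27). In 6 of the 7, all but Psmd11, the highest HbHp library was replicate 1.

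Of 24 ATF4 and amino acid response genes, the pseudokinase Trib3 (0.75 ± 0.19, adjusted p = 0.0113) and the amino acid transporter heavy chain Slc3a2 (0.25 ± 0.06, adjusted p = 0.00373) were raised, and Ddit4, an inhibitor of mTORC1, was lowered (−0.44 ± 0.13, adjusted p = 0.0389). Ddit4 did not pass after the GC correction (−0.33, adjusted p = 0.285) or in round E2 alone (−0.14, adjusted p = 0.468), and it passed in 9 of 17 leave-outs. Atf4 did not pass (0.19 ± 0.08, adjusted p = 0.162), and Cebpb was raised only after the GC correction. Among 18 chaperones and unfolded protein response genes of the endoplasmic reticulum none was raised and 3 were lowered. These were Calr (−0.30 ± 0.07, adjusted p = 0.00549), Hspa5 (−0.26 ± 0.06, adjusted p = 0.0113) and Creld2 (−0.19 ± 0.06, adjusted p = 0.047), the last not after the GC correction, where Hsp90b1 was lowered. Calr was at 1062 and 1113 CPM in the E2 controls and at 716 to 891 CPM with HbHp, and each of the 3 was lost in at least one leave-out. None of 13 cytosolic heat shock, 20 cholesterol or 23 lysosomal genes passed, and of 16 HIF targets the glucose transporter Slc2a1 did (0.31 ± 0.09, adjusted p = 0.0278), though not without control replicate 9 (adjusted p = 0.150).

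Of the inflammation lists 7 of 97 tested genes were raised and 3 lowered, with a median of −0.13. Clec4n and Clec4d, neighbouring C-type lectin receptors of myeloid cells (Dectin-2 and its partner), were the leading pair. Clec4n stood at 4.83 to 12.1 CPM in the controls (median 6.69) and at 27.1 CPM or more with HbHp (median 31.5), with a log2 fold change of 2.05 ± 0.24 (adjusted p = 4.13e-08). Clec4d ran from 10.1 to 45.6 CPM and from 93.8 to 203 CPM (1.52 ± 0.25, adjusted p = 8.11e-05, and 1.35 without HbHp replicate 1, the highest library). In both, all 8 HbHp libraries exceeded all controls. The 2 genes are similar in sequence, and Clec12a, an inhibitory lectin, was lowered (−0.98 ± 0.30, adjusted p = 0.0402). Clec12a passed in 9 of 17 leave-outs (adjusted p = 0.128 without control replicate 9) and stood at −0.35 without the round term (adjusted p = 0.587).

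Il11, a cytokine of the IL-6 family, rose by 1.39 ± 0.32 (adjusted p = 0.00511), from 1.25 to 4.53 CPM in the controls to 5.04 to 20.0 CPM. Its value in replicate 1 was far above the other libraries, which reached 8.90 CPM, and without it the fold change was 1.10 (adjusted p = 0.0192). In round E2 alone Il11 did not pass (adjusted p = 0.125). Tnf did not pass (−0.03 ± 0.22, adjusted p = 0.955), nor did Ptgs2 (0.75 ± 0.27, adjusted p = 0.095) or Gpr84 (0.09 ± 0.26, adjusted p = 0.879). Tnfrsf1a was not past the threshold (0.09 ± 0.05, adjusted p = 0.339) but passed after the GC correction (0.19, adjusted p = 0.0222). None of 9 CXC chemokines, 13 complement genes or 17 interferon-stimulated genes passed, and of 11 CC chemokines Ccl12 was lowered. Ccl7 was lowered only after the GC correction. Fosl1 (0.83), Arc (0.59) and Egr2 (0.55) were raised among 16 immediate early factors and Jund was lowered (−0.24). Jund stood at −0.06 after the GC correction and without the round term (adjusted p = 0.627 and 0.678), and Fosl1 and Arc did not pass without control replicate 9 (adjusted p = 0.0942 and 0.0897).

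Of 8 EGF family genes 4 were raised, with a median of 0.40. Ereg (epiregulin) was at 0.569 and 0.676 CPM in the E2 controls, up to 2.89 CPM in the E1 controls and at 4.67 to 9.79 CPM with HbHp, a log2 fold change of 1.98 ± 0.31 (adjusted p = 2.07e-05). Areg (amphiregulin) stood at 0.287 to 1.26 CPM in the controls and at 1.35 to 4.03 CPM with HbHp (1.63 ± 0.31, adjusted p = 0.000703, and 1.44 without HbHp replicate 1). Neither overlapped the controls. Btc (betacellulin, 0.84) and Nrg1 (neuregulin, 0.51) overlapped, and Btc did not pass after the GC correction (adjusted p = 0.0872).

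The 10 lowered most were Slit3, Ccl12, Hif3a, Gucy2f, Trpm2, C6, Stk32b, Mchr1, Prss35 and Lrrc55, and only Hif3a, Prss35 and Mchr1 passed in every leave-out. Hif3a, a HIF alpha subunit that can restrain the others, was at 8.77 to 14.9 CPM in the controls (median 12.7) and at 1.16 to 6.17 CPM with HbHp (median 4.63). All HbHp libraries lay below all controls, as for 0.684% of tested genes, and replicate 1 was the lowest. The log2 fold change was −1.25 ± 0.20 (adjusted p = 2.66e-05), and −1.11 without replicate 1. Prss35, a serine protease-like protein, was also below all controls, with 15.5 to 29.6 CPM in the E1 controls, 6.64 and 7.65 CPM in the E2 controls and 1.98 to 5.04 CPM with HbHp (−1.09 ± 0.22, adjusted p = 0.00175). In round E2 alone Prss35 did not pass (−0.84, adjusted p = 0.106).

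For the other 8 the HbHp libraries overlapped the E1 controls and lay below both E2 controls. Slit3, an axon guidance ligand, was at 2.20 and 3.50 CPM in the E2 controls and at 0.492 to 1.64 CPM with HbHp (−1.42 ± 0.31, adjusted p = 0.00308), with E1 controls between 0.705 and 2.61 CPM. Ccl12, a monocyte chemoattractant, was at 13.5 and 15.9 CPM in the E2 controls, at 1.89 to 13.2 CPM in E1 and at 4.31 to 6.69 CPM with HbHp (−1.28 ± 0.39, adjusted p = 0.0423). C6, a terminal complement component, showed the widest gap between rounds, with at most 6.13 CPM in E1, 14.6 and 16.1 CPM in E2 and 4.66 to 8.61 CPM with HbHp. All 8 kept their direction without the round term, where Slit3 (−1.04), Stk32b (−0.88) and Gucy2f (−1.01) passed and the other 5 did not (C6 at −0.22). Without control replicate 9, Mchr1 passed and the other 7 did not. Over all 222 lowered genes, the HbHp mean was below the E2 control mean for each, and for 13 it was at or above the mean of all 9 controls.

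**Figure D4:**
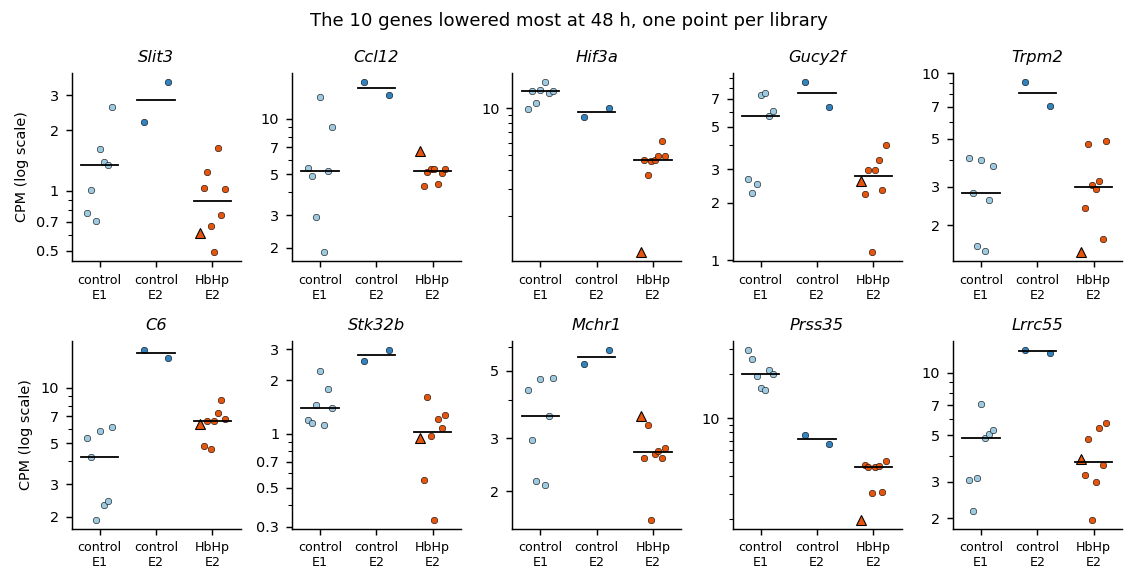
Levels of the 10 genes lowered most in single 48 h libraries, in CPM on a log axis, with controls of round E1 (light blue, 7) and E2 (dark blue, 2) and HbHp libraries (orange, 8; triangle, replicate 1); lines are medians. Hif3a and Prss35 lie below all controls with HbHp, and the other 8 lie below both controls of round E2 and overlap the range of the E1 controls.

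Markers of cell types gave no call in either direction among 122 tested, and after the GC correction the microglial receptor P2ry12 was lowered (−0.64, adjusted p = 0.0302), but their levels differed between rounds. The summed level of 12 homeostatic microglia markers was 468 to 1670 CPM in the E1 controls, 2349 and 2775 CPM in the E2 controls and 1250 to 1922 CPM with HbHp, and all 12 fold changes were below zero (median −0.56). Disease-associated microglia markers summed to 67387 and 67569 CPM in the E2 controls and to 48080 to 72360 CPM with HbHp (median fold change −0.06). The E1 controls were lower for these, at 15444 to 47403 CPM. The 18 neuron markers summed to 1157 and 1529 CPM in the E2 controls and 641 to 985 CPM with HbHp (E1 controls 606 to 1022 CPM), with all 18 fold changes below zero and a median of −0.32. Border-associated macrophage markers summed to 932 and 1123 CPM in the E2 controls and to 366 to 691 CPM with HbHp. The E1 controls ran from 214 to 783 CPM, a range that holds the HbHp libraries. Astrocyte markers summed to 9313 and 9592 CPM in the E2 controls and to 8178 to 13131 CPM with HbHp (E1 controls 8291 to 12851 CPM). Choroid plexus and ependyma markers varied most between HbHp libraries, from 154 to 1937 CPM. None of 7 red blood cell genes passed the filter on low counts. The part of cell composition in the gene results was not tested.

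The 24 h HbHp slices put the 48 h values in time. At 24 h, HbHp changed 199 genes (1.23%), 169 of them raised (1.04%), against the 24 h controls. Of the oxidative stress members 23 were raised at 24 h, and 5 of the heme and iron members. The difference of the HbHp effect between the times, tested as an interaction, passed for 5 genes (0.0308%), Il11, Ereg, Areg, Prdx1 and Clec4n, with 1612 at an unadjusted p under 0.05. Each had a larger effect at 48 h in this fit, which gives the round term the same size at both times. In round E2 alone 1 gene passed, and in batch 3 alone 0. Ereg ran from 2.82 to 13.3 CPM in the E2 controls at 24 h and from 4.36 to 6.91 CPM in E1. At 48 h the E2 controls stood at 0.569 and 0.676 CPM and E1 at 2.35 to 2.89 CPM. For Il11 the log2 fold change of HbHp against control was 2.09 ± 0.34 higher at 48 h than at 24 h (adjusted p = 0.00142). For Ereg it was 1.88 ± 0.31 higher (adjusted p = 0.00142). Il11 at 24 h was at 2.09 to 8.55 CPM in the controls and at 2.22 to 4.09 CPM with HbHp. Ereg at 24 h was at 2.82 to 13.3 CPM in the controls and at 3.01 to 6.09 CPM with HbHp, without a difference past the threshold (0.09 ± 0.28, adjusted p = 0.918).

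In Ereg and Areg the control levels were lower at 48 h. Areg had a median of 1.64 CPM in the 24 h controls and of 0.510 CPM in the 48 h controls, and HbHp medians of 1.98 and 2.00 CPM (interaction 1.84 ± 0.32, adjusted p = 0.00304). Prdx1 instead rose further with HbHp, from a median of 1249 CPM at 24 h to 1866 CPM at 48 h, against 629 and 535 CPM in the controls (0.83 ± 0.15, adjusted p = 0.00451). Clec4n went from 18.4 to 31.5 CPM with HbHp and from 8.05 to 6.69 CPM in the controls (1.19 ± 0.25, adjusted p = 0.046), a call that was lost without HbHp replicate 1 (adjusted p = 0.159), without control replicate 9 (adjusted p = 0.0719) and after the GC correction (adjusted p = 0.174). Gclm, Nqo1 and Hmox1 gave interactions of 0.24 ± 0.10, 0.48 ± 0.19 and 0.21 ± 0.25 that did not pass (adjusted p = 0.443, 0.393 and 0.779).

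**Figure D5:**
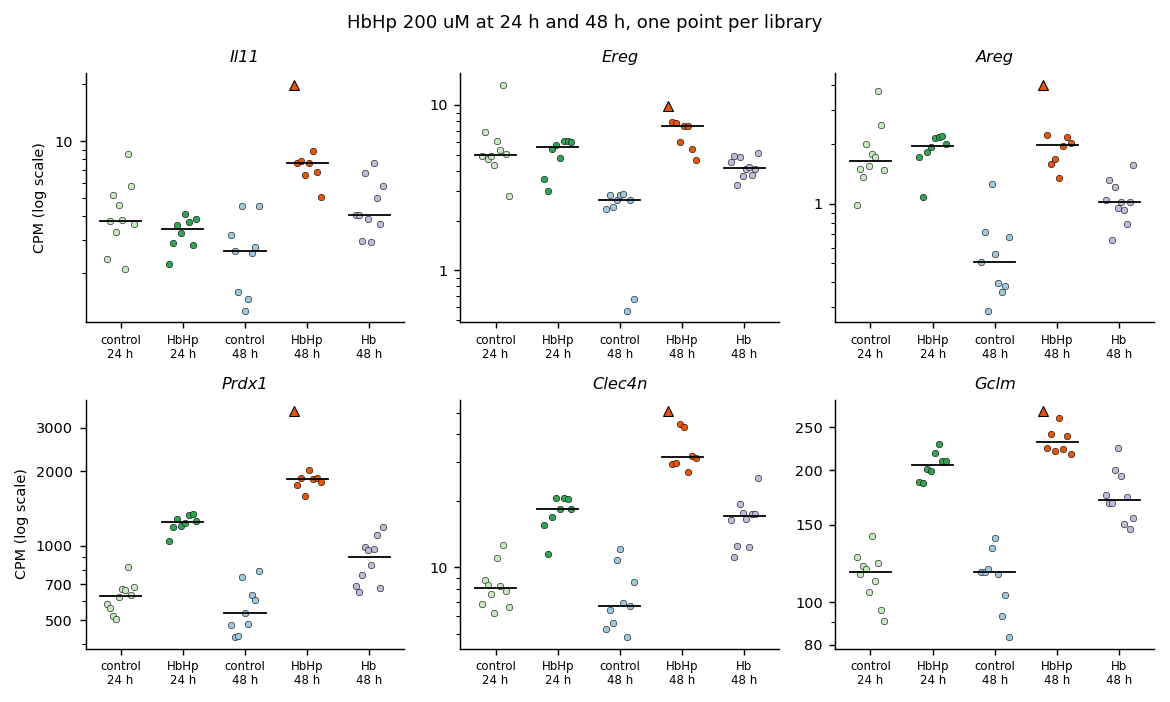
Levels of the 5 genes with an interaction of HbHp and time, and of Gclm, in single libraries, in CPM on a log axis, for control (10) and HbHp (8) at 24 h and control (9), HbHp (8) and free Hb (10) at 48 h; triangle, HbHp replicate 1; lines, medians. Prdx1 and Clec4n with HbHp are higher at 48 h than at 24 h, and the controls of Ereg and Areg are lower at 48 h.

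Free Hb at the same dose and time changed 73 genes (0.450%) against the same controls, 66 of them raised (0.407%), including 23 oxidative stress and 6 heme and iron members. Those controls are shared with the HbHp comparison, so the values are given side by side only. The direct test of HbHp against Hb at 48 h passed for 342 genes (2.11%), of which 257 were higher with HbHp. After the GC correction 37 passed, 17 of them higher and 20 lower with HbHp and 33 of them among the 342, and without HbHp replicate 1 the count was 231. In the oxidative stress lists 16 of 99 genes were higher with HbHp and none lower, against 257 higher of all 16221 tested genes. How many of the 16 passed after the GC correction is not given here. In batch 3 alone the direct test passed for 0 genes.

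Gclm was at 147 to 225 CPM with Hb and at 218 to 273 CPM with HbHp, and the difference was 0.73 ± 0.09 (adjusted p = 5.85e-06, 0.000124 after the GC correction). Prdx1, at 650 to 1195 CPM with Hb, was 0.91 ± 0.14 higher with HbHp (adjusted p = 0.000157), and Nqo1, at 12.7 to 26.9 CPM with Hb, 0.82 ± 0.17 higher (adjusted p = 0.00688). Calr was lower with HbHp than with Hb (−0.32 ± 0.07, adjusted p = 0.00688), as was Hif3a (−0.91 ± 0.19, adjusted p = 0.00688). For Hmox1 the difference did not pass, with 4501 to 4745 CPM in the Hb libraries of round E2 and 4502 to 6949 CPM with HbHp (0.12 ± 0.22, adjusted p = 0.838, 95% interval −0.32 to 0.56). For Slc40a1 (0.32, interval −0.05 to 0.70), Fth1 (0.21, −0.03 to 0.44) and Il19 (0.44, −0.28 to 1.16) it did not pass either. Only 3 Hb libraries at 48 h came from round E2, and within that round alone 16 genes passed.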

How the data were processed

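Slice RNA was sequenced as Illumina TruSeq mRNA libraries. Per the labels, the authors counted reads per Ensembl gene with featureCounts on GRCm39, and the deposited values are raw counts. The aligner is not given in the sources used here. The members and gene lists were chosen with earlier results of these data known.

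Counts of 55 libraries (control, Hb 200 μM and HbHp 200 μM at 24 h and 48 h) were fitted with edgeR 4.0.16 in R 4.3.3: TMM scaling, filterByExpr (smallest count 10, smallest total 15), quasi-likelihood F test, terms for batch and round, and Benjamini-Hochberg adjustment over 16221 genes at 0.05. SE was taken as the size of the log2 fold change over the root of F. Of 25528 identifiers, 25424 had a symbol. GC content, transcript length and exon overlaps came from GRCm38 (GENCODE M21). The GC correction removed each library's spline trend (5 degrees of freedom each) as an offset. Lists are described by counts and medians. Alternatives included DESeq2 1.42.0 and RLE scaling. Levels are TMM-scaled CPM. Named genes were the 10 raised and 10 lowered most with a mean of at least 1 CPM, 10 genes the study names, and list members. Of the 188 libraries, 21 were not assigned.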

Additional observations from a re-analysis of the deposited data

Results flagged for a closer look

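Among the 95 named genes, each tested in the 9 controls and the 8 HbHp libraries at 48 h (190 combinations), the highest or lowest library was far from the rest by Dixon's ratio (gap to the nearest library over the range) in 46 combinations. The critical value is set to pass about 1 in 20 of independent normal samples, here 9.5. These combinations share the same libraries and hold genes mostly picked by their values here. The 9.5 is therefore no chance rate for the 46. HbHp replicate 1 was the library concerned in 38, on the high side in 32. For redox, heme and iron genes the ratio was 0.554 for Nqo1, 0.775 for Prdx1, 0.541 for Srxn1, 0.586 for Osgin1, 0.607 for Blvrb, 0.76 for Esd, 0.578 for Hmox1, 0.724 for Akr1b8, 0.587 for Gstm1, 0.576 for Fth1, 0.572 for Mgst1, 0.773 for Cbr3, 0.799 for Taldo1, 0.574 for Slc48a1, 0.581 for Gss, 0.662 for Abcc1, 0.623 for Htatip2, 0.802 for Txn1, 0.68 for Sod1, 0.647 for Ncoa4 and 0.673 for Idh1. It was low there for Osgin1, Gstm1 and Abcc1. For the cytokines, ligands and receptors the ratio was 0.644 for Il19, 0.673 for Areg, 0.83 for Clec4d, 0.742 for Il11, 0.549 for Ccl12 and 0.748 for Lrp1, the last low (450 CPM, the others from 1400 CPM). For the other stress genes it was 0.63 for Ccng1, 0.634 for Mdm2, 0.826 for Psmd14, 0.761 for Psma5, 0.786 for Psma3, 0.633 for Psmc6, 0.826 for Psmd1, 0.736 for Psmd7, 0.635 for Slc3a2 (low), 0.667 for Hspa5 and 0.545 for Calr (low).

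Other libraries stood out 8 times. These were control replicate 4 for Areg (0.554), control replicate 5 for Nkx3-2 (0.511), control replicate 9 for Ccng1 (0.585), Ireb2 (0.52) and Cul3 (0.508), control replicate 3 for Creld2 (0.64), HbHp replicate 5 for Trp53inp1 (0.637) and HbHp replicate 4 for Aen (0.542). Control replicate 9, the control that shares batch and round with HbHp, was low for all 3 of its genes.

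The effect of HbHp differed between 24 h and 48 h by the interaction test for Clec4n (1.19 on the log2 scale), Ereg (1.88), Areg (1.84), Prdx1 (0.83) and Il11 (2.09).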

How the results depend on the processing

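Signs were compared for the 822 genes. All that were tested kept their sign with RLE scaling, DESeq2, the sex term, round E2 alone (821 tested) and batch 3 alone (821 tested). The sign held for 814 without the round term, 698 without batch and round terms, and 820 with the GC correction. The 822 were chosen by their p in these libraries, and each of these alternatives reused the HbHp libraries. A kept sign was therefore largely set in advance and is no separate support. Without the round term 2573 genes changed (1192 raised, 1381 lowered), without both terms 4947 (2273, 2674), and without the batch term 346 were lowered. The 17 libraries alone gave 35 (29, 6), the 48 h libraries 236 (158, 78), batch 3 alone 84 (63, 21), and the fit of all libraries of batches 2 and 3 gave 1959 (1160, 799). Round E2 alone raised 289. The GC correction gave 287 (204, 83), and 232 (160, 72) without HbHp replicate 1. Leaving out 1 library gave 244 to 869 changed genes, 188 to 640 raised and 56 to 270 lowered: without control replicate 9, 244 (188, 56); without control replicate 7, 138 lowered; without HbHp replicate 5, 526 (371 raised). DESeq2 gave 962.

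The interaction counted 5 genes, 3 without both terms, 2 with all libraries of batches 2 and 3, 1 in round E2 alone, 0 in batch 3 alone, 10 with DESeq2, and 4 without HbHp replicate 1. HbHp against Hb counted 342, 1002 without the round term, 3176 without both, 548 with a batch by round term, 46 in the 48 h libraries, 821 with all libraries of batches 2 and 3, 16 in round E2 alone, 0 in batch 3 alone, 543 with DESeq2, 37 with the GC correction, 27 with it and without HbHp replicate 1, and 231 without that replicate.

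With the title number as a replicate block, 7 genes changed (6 raised, 1 lowered), the interaction 7, and HbHp against Hb 0; the numbers did not pair libraries (correlations −0.32 to 0.06 over 8 pairs). The edgeR counts of 0 go with 276 genes at an unadjusted p under 0.05 for the interaction and 864 for HbHp against Hb in batch 3 alone, and 793 for HbHp against Hb with the title number block, and no other tool was run there. With the library code as a replicate block, 382 were lowered, the interaction counted 13 and HbHp against Hb 594; 2 code pairs correlated at 0.19 and 0.29.

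Signs turned without batch and round terms for Trp53inp1 (−0.13), Ireb2 (−0.11), Slc30a1 (−0.01), Cul3 (−0.02) and Hp (0.15, and 0.03 without the round term), and between HbHp and Hb for Gsr (−0.07), Trp53inp1 (−0.20) and Ireb2 (−0.12). Gpr84 turned with a batch by round term (−0.11), the 17 libraries (−0.01), round E2 alone (−0.19) and the library code block (−0.0006). The causes were not tested. Only 2 controls shared the round of the HbHp libraries.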

Other observations

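Genes outside the naming rule, chosen after their values were seen, included targets of the aryl hydrocarbon receptor, a ligand-activated factor that induces cytochromes of the CYP1 family. They were not tested as a list. Cyp1a1 was at 0.0398 to 0.226 CPM in the 48 h controls and at 0.731 to 1.60 CPM with HbHp, with no overlap (log2 fold change 2.75 ± 0.48, adjusted p = 0.000212, edgeR's quasi-likelihood test). Cyp1b1 rose by 1.03 ± 0.19 (adjusted p = 0.000547), the receptor's repressor Ahrr by 0.94 ± 0.15 (adjusted p = 4.55e-05) and Tiparp by 0.54 ± 0.08 (adjusted p = 4.51e-06). All 4 also passed with free Hb at 48 h (2.43, 0.74, 0.68 and 0.22), and after the GC correction with HbHp. Cyp1b1, Ahrr and Tiparp overlapped the controls but lay above both E2 controls.

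Further raised genes were Adh7, an alcohol dehydrogenase (2.17), Procr, the endothelial protein C receptor (0.87), Cyb5a, cytochrome b5 (0.84), the glycogen branching enzyme Gbe1 (0.81), Pir (0.78), Layn (0.70) and Met, the hepatocyte growth factor receptor (0.49). Ikbkg, which shares exon sequence with G6pdx on the opposite strand, rose by 0.61 ± 0.05 (adjusted p = 1.67e-13), from 55.4 to 62.2 CPM in the controls to a median of 88.3 CPM, with no overlap. Reads of 2 overlapping genes cannot be told apart where strand was not used in counting.

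Lowered genes chosen in the same way were Plin4, Fkbp5 and Cyp26b1. Plin4, a lipid droplet protein, fell (−1.04 ± 0.21, adjusted p = 0.00138), Fkbp5, a glucocorticoid-inducible cochaperone, by less (−0.36 ± 0.11, adjusted p = 0.0368, and 0.104 after the GC correction) and Cyp26b1, which degrades retinoic acid, by −0.98 ± 0.17 (adjusted p = 0.000118). Cyp26b1 ran from 20.8 to 29.4 CPM in the controls and from 6.38 to 18.6 CPM with HbHp, and Fkbp5 from 63.3 to 90.3 CPM and from 43.6 to 61.8 CPM, both without overlap.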
